A study of Mus musculus and Rattus norvegicus with 12 samples.

Results

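Transcripts of the nuclear-encoded oxidative phosphorylation genes were compared across mouse pXEN, XEN and ES cell lines, with rat XENP lines beside them. The genes were taken by symbol, as all rows beginning with Nduf followed by a, b, c, s or v, with Uqcr, Cox4 to Cox8 or Atp5, together with Sdha, Sdhb, Sdhc, Sdhd and Cyc1, and without pseudogene symbols ending in ps. The rule found 93 of the 24411 mouse rows and 87 of the 17315 rat rows, of which 85 symbols were shared. Of the 93 mouse genes, 36 were placed in complex I, 4 in complex II, 9 in complex III, 19 in complex IV and 15 in complex V. The other 10 are assembly or accessory genes that the symbols also take in, namely the Ndufaf genes, Atp5s, Atp5sl and Cox7a2l. Ndufa4 and Ndufa4l2 were placed in complex IV, where the Ndufa4 protein sits despite its name.

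The samples were 12 separately derived blastocyst lines, 1 RNA-seq library each, collected after 2 days of culture. The mouse lines were of strain ICR and comprised 3 pXEN lines (pXEN2, pXEN4, pXEN6), 3 XEN lines (XEN1, XEN2, XEN5) and 2 ES lines (ES2, ES3). The labels give pXEN2, XEN2, XEN5 and ES2 as male and the other mouse lines as female, and CX1 and MAX3 as male and MAX2 and MAX8 as female. The rat XENP lines were CX1 and MAX8 of strain WKY and MAX2 and MAX3 of strain F344. The pXEN lines were at passages 17 to 21, XEN1 at 9 to 10, XEN2 and XEN5 at 19 to 21 and the ES lines at 14 to 16. CX1 was at passage 38 to 40 and the MAX lines at 10 to 17. XEN cells, extraembryonic endoderm stem cells, were grown on mouse embryo fibroblasts with 20% serum, and ES cells with 15% serum, LIF and the paired inhibitors called 2i. pXEN and rat XENP cells shared another type of culture, so cell type and culture medium cannot be told apart in any comparison between the mouse groups.

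Oxidative phosphorylation passes electrons from NADH and succinate through complexes I and II to ubiquinone, then through complex III and cytochrome c to complex IV, which reduces oxygen. Complexes I, III and IV pump protons across the inner mitochondrial membrane, and complex V, the ATP synthase, uses the resulting gradient to make ATP. All complexes but complex II also hold subunits encoded by mitochondrial DNA, which were not analysed here. Many of the nuclear genes carry promoter motifs of NRF1, GABPA, YY1 and the estrogen-related receptors, factors known for linking mitochondrial gene expression to cell growth and energy demand.

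Core motifs of NRF1 and YY1 (10 letters each), of GABPA (CCGGAAGTG) and of estrogen-related receptor alpha (TCAAGGTCA) were searched on both strands of the RefSeq promoters of GRCm38.p6, which run from 250 bases before to 50 bases after a start. Promoters were matched for 76 of the 93 genes. The NRF1 motif was found in 19 of these 76 (25.0%), against 5.19% of 27025 genes with a promoter. The shares were 7.89% against 0.995% for YY1, 2.63% against 2.25% for GABPA and 2.63% against 0.466% for estrogen-related receptor alpha. The 27025 genes were not limited to tested ones, and no share over tested genes was taken. These contrasts therefore do not set the genes apart from other expressed genes. The 2 promoters below have a match to any of the 4 motifs, at most 30 bases inside exons of the gene's own GENCODE transcripts, and the smallest p in pXEN against ES. Their matches are all to NRF1. The genes moved in opposite directions, which played no part in the choice: Cox6a1 rose and Ndufa11 fell. Each is the 250 bases before the first start in the RefSeq table, 5′ to 3′ on the gene's strand, with NRF1 matches in capitals. Ndufa11 is at chr17:56717512-56717761 (plus strand) and Cox6a1 at chr5:115348959-115349208 (minus strand), where its last 23 bases lie in a GENCODE exon of the gene. The window of Ndufa5, which also holds an NRF1 match, is not shown because all its 250 bases lie in an exon of a longer GENCODE transcript.
Ndufa11: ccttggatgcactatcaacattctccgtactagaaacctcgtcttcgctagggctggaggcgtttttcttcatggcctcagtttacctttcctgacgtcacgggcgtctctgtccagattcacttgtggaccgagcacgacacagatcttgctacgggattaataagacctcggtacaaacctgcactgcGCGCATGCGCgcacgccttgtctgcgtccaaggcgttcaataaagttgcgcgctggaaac
Cox6a1: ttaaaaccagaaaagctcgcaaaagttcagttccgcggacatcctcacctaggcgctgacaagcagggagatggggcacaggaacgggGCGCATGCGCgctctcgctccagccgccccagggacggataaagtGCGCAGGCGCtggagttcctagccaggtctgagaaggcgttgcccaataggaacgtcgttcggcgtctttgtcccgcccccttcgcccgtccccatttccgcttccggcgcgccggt
The Cox6a1 window holds 2 matches and that of Ndufa11 holds 1. Among tested genes with a promoter, the median log2 fold change in pXEN against ES was 0.25 over the 18 with an NRF1 match and 0.27 over the 55 without. In XEN against ES the same medians were -0.02 and 0.09. A match describes letters in a window and does not show that a factor binds there.

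Reads counted to genes numbered 2661691 to 3483069 for the mouse libraries. Rat libraries had fewer, 1047535 to 1242937. The ribosomal precursor row Rn45s held 20.7% to 50.1% of the mouse counts and 0.00821% to 0.0312% of the rat counts. The oxidative phosphorylation genes together received 19008 to 33109 of the mouse counts and 12146 to 16220 of the rat counts per library. The labelled cell types were checked by their markers. Against ES, all 10 extraembryonic endoderm markers were higher and all 8 pluripotency markers lower, both for pXEN and for XEN. Summed fibroblast markers reached 537 to 616 CPM (counts relative to the TMM-scaled library size, on the usual CPM scale) in the XEN lines, 19.7 to 24.2 CPM in pXEN and 13.3 to 17.7 CPM in ES. In XEN against ES 12 of the 13 fibroblast markers tested were called higher, and the part of fibroblast RNA in the XEN values below was not tested. In bulk RNA, fewer cells of a type and less RNA per cell cannot be told apart.

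Together the 93 genes, assembly and accessory ones included, made up 1.09% to 1.44% of counts without Rn45s in the mouse lines. All 93 genes summed to 1.36% ± 0.0766 (SD, n = 3) of counts without Rn45s in pXEN, 1.22% ± 0.0595 (n = 3) in XEN and 1.17% ± 0.109 (n = 2) in ES. The lines ranged from 1.30% to 1.44% in pXEN, from 1.16% to 1.26% in XEN and from 1.09% to 1.25% in ES. Every pXEN line was thus above every XEN and ES line, while XEN and ES overlapped. Complex V held the largest share, at 0.482% in pXEN, 0.423% in XEN and 0.426% in ES. Complexes I and IV followed at 0.299% and 0.291% in pXEN. For complex IV the pXEN lines spanned 0.264% to 0.314%, the XEN lines 0.223% to 0.270% and the ES lines 0.222% to 0.228%, so pXEN was above ES in every line and overlapped XEN. Complex II was lowest, at 0.0688% in pXEN, 0.0594% in XEN and 0.0592% in ES. These sums rest mainly on the abundant genes.

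**Figure D1:**
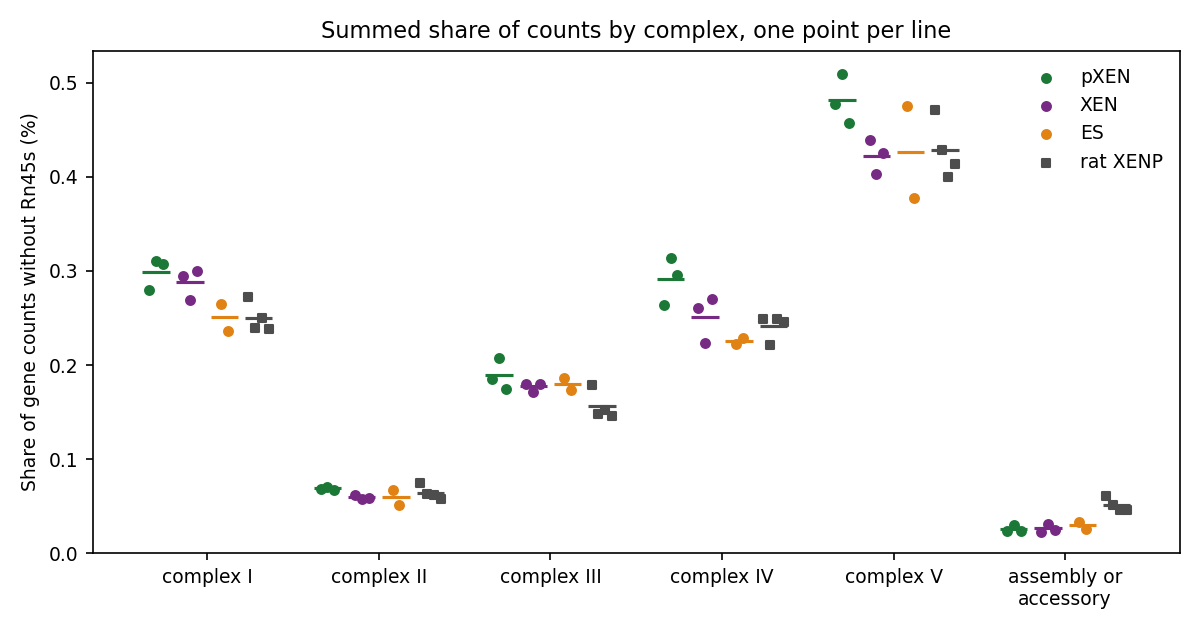
Summed share of gene counts (percent, without Rn45s) of each complex, 1 point per line and a bar at the group mean, with rat XENP lines as squares. Complex V has the largest share in every group, 0.482% on average in pXEN and 0.426% in ES. Complex IV averages 0.291% in pXEN and 0.225% in ES. Rat sums cover 87 rows and mouse sums 93, so their shares are not directly comparable.

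Levels between genes were compared as CPM per kilobase of exon, averaged over the 8 mouse lines. Cox8a, a small subunit of complex IV, was highest at 511 CPM per kilobase, and Atp5b, the catalytic beta subunit of the ATP synthase, followed at 487. Cox7b (295), Ndufa4 (274) and Uqcrh (229) came next. Over these 5 genes, the lines of each gene overlapped those of its neighbours in the order. Of the 86 genes with enough counts to be tested, 85 were above 0 in all 8 mouse lines. The highest line was less than 2-fold above the lowest in 52 of these 85 (61.2%), against 21.0% of all tested genes above 0 in all lines. The median ratio of highest to lowest line was 1.79 for these genes and 3.02 for all tested genes. No background matched in count level was taken, so these contrasts do not set the genes apart from others at their level.

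The first question was how pXEN cells differ from ES cells. Compared with ES, 10 of the 86 tested genes (11.6%) changed in pXEN, 6 higher and 4 lower, against 35.9% of all 10895 tested genes (18.2% higher and 17.8% lower). Calls rest on the quasi-likelihood test of edgeR at an adjusted p of 0.05, with Benjamini-Hochberg adjustment over all tested genes. Among tested genes with under 1500 bases of exon, 28.9% were called, and among genes of similar level 36.0%, where similar means between the 10th and 90th percentile of these genes' own levels (8.44 to 179.6 CPM). The genes that rose were Ndufa5 and Ndufa8 of complex I, Cox5b, Cox6a1 and Ndufa4 of complex IV and Atp5d of complex V. The genes that fell were Ndufa11 of complex I, Cox6b2 and Cox7c of complex IV, and Atp5sl, an accessory gene. In GENCODE vM21 (GRCm38) the genes that rose lie as follows: Ndufa5 at chr6:24518666-24528013, Ndufa8 at chr2:36036326-36049406, Cox5b at chr1:36691449-36693681, Cox6a1 at chr5:115345642-115348981, Ndufa4 at chr6:11900292-11907497 and Atp5d at chr10:80138632-80145818. Those that fell are Ndufa11 at chr17:56717767-56722141, Cox6b2 at chr7:4751792-4753094, Cox7c at chr13:86044816-86046904 and Atp5sl at chr7:25619414-25625551. The median log2 fold change of the 86 was 0.22, against -0.03 for all tested genes. Of the 86, 57 (66.3%) were above 0, against 48.7% of all tested genes and 48.1% of genes with under 1500 bases of exon. The median size of change was 0.33 on the log2 scale, against 0.78 for all tested genes. For 47 of the 86 (54.7%) the 95% interval of the fold change lay within 2-fold either way, against 18.9% of all tested genes and 24.3% of genes of similar level. All pXEN lines lay above both ES lines for 31 of the 86 and below both for 10, where all tested genes gave 30.2% and 32.6% (62.8% in either direction). With upper-quartile scaling the calls were 3 higher and 5 lower, and without ES2 there were 0 (13 at an unadjusted p under 0.05 by edgeR), when 22.2% of all genes were still called. Of the 10 calls 7 were lost without ES3, 7 without pXEN2, 6 without pXEN6 and 2 without pXEN4. Leaving out 1 ES line leaves 1, whose spread is then assumed to be that of the other groups.

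The same question for XEN cells gave fewer calls. In XEN against ES, 4 of 86 genes (4.65%) changed, against 38.4% of all tested genes (20.7% higher and 17.8% lower). Atp5d and Cox6a1 rose and Cox7c and Atp5sl fell. Both comparisons use the same ES lines, so their values are given side by side below. The median log2 fold change was 0.02, against 0.00 for all tested genes, and the median size of change 0.27 against 0.81. The 95% interval lay within 2-fold for 51 of the 86 (59.3%), against 18.4% of all tested genes and 23.6% of genes of similar level. All XEN lines lay above both ES lines for 14 of the 86 and below both for 15, where all tested genes gave 31.6% and 31.7% (63.3% in either direction). Among all genes with under 1500 bases of exon 30.6% were called. With upper-quartile scaling 1 gene was higher and 7 lower, with no filter on low counts 4 were higher, and without ES2 0 were called (9 at an unadjusted p under 0.05 by edgeR), when 21.6% of all genes were. Of the 4 calls 3 were lost without ES3, 3 without XEN1, 2 without XEN5 and 0 without XEN2.

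**Figure D2:**
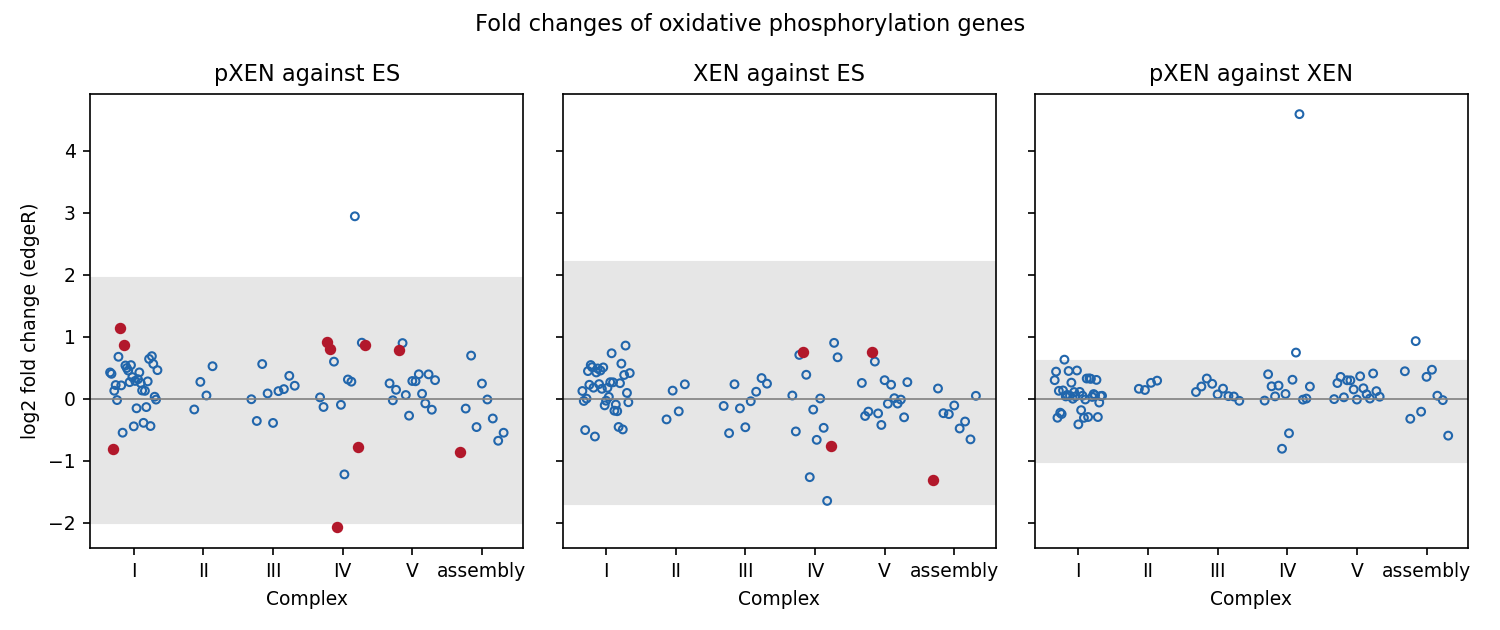
log2 fold change of each tested gene by complex in the 3 comparisons, with filled red points for adjusted p below 0.05, open points for the rest, and a grey band from the 10th to the 90th percentile of all tested genes. Most points lie near 0 and well inside the band, whose upper end is at 1.95 in pXEN against ES.

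Complex I, the NADH dehydrogenase, had 35 tested genes, of which 2 rose and 1 fell in pXEN against ES. In XEN against ES edgeR called 0 (3 at an unadjusted p under 0.05), and DESeq2 also called 0 (2 unadjusted). The median log2 fold changes were 0.28 and 0.18. Ndufa5, an accessory subunit of the peripheral arm (mouse chromosome 6, on the minus strand), had 60.9, 40.4 and 61.4 CPM in pXEN2, pXEN4 and pXEN6, 21.0, 36.4 and 47.0 CPM in XEN1, XEN2 and XEN5 and 24.3 and 24.9 CPM in ES2 and ES3. All pXEN lines were above both ES lines, while XEN1 was below them. Its log2 fold change was 1.14 ± 0.35 (SE) in pXEN against ES (edgeR adjusted p = 0.0254) and 0.51 ± 0.35 in XEN against ES (adjusted p = 0.269). The pXEN call was lost without pXEN2 and without pXEN6. Ndufa8, a subunit with cysteine motifs that is imported into the intermembrane space, had 35.2, 35.6 and 48.2 CPM in the pXEN lines, 32.0, 26.4 and 29.1 in the XEN lines and 16.0 and 27.3 in the ES lines. Its change was 0.87 ± 0.30 in pXEN against ES (adjusted p = 0.0430), and DESeq2, upper-quartile scaling and a fit of these groups alone each ended the call. Ndufa11, a membrane-arm subunit, had 46.1, 51.8 and 40.5 CPM in pXEN and 70.1, 45.6 and 55.7 in XEN, compared with 79.0 and 83.01 in ES. Both ES lines were above all endoderm lines, and the change was -0.81 ± 0.24 in pXEN (adjusted p = 0.0227) and -0.51 ± 0.24 in XEN (adjusted p = 0.123).

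The core subunits of complex I showed no call. Ndufs1, which carries iron-sulfur clusters of the electron path, had 116, 124 and 132 CPM in pXEN and 92.0, 105 and 100.4 in XEN, compared with 144 and 84.2 in ES, so the ES lines bracketed all others. Ndufv1, the flavin-binding subunit that accepts electrons from NADH, had a log2 fold change of 0.03 ± 0.31 in pXEN and 0.09 ± 0.31 in XEN against ES. In XEN against ES the smallest p of complex I belonged to Ndufa7, an accessory subunit with 41.3 ± 5.11 CPM (SD, n = 3) in XEN, 43.0 ± 6.20 (n = 3) in pXEN and 62.9 ± 2.38 (n = 2) in ES, at adjusted p = 0.0593 by edgeR. Ndufs5, another accessory subunit, was listed at 0 in all 8 mouse lines, where a count of 0 allows up to 0.793 to 1.23 CPM per line. In the rat lines the same symbol had 18.5 to 34.8 CPM. Which annotation was counted is unknown, and its part in the mouse value of 0 was not tested.

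Complex II, the succinate dehydrogenase, had 0 calls among its 4 genes by edgeR or DESeq2. At an unadjusted p under 0.05 both tools gave 1 in pXEN against ES and 0 in XEN against ES. Sdha, the flavin subunit, had 119, 116 and 82.9 CPM in the pXEN lines, 94.7, 109 and 81.9 in the XEN lines and 134 and 106 in the ES lines. Sdhb, the iron-sulfur subunit, had 64.7 ± 10.0 CPM in pXEN and 58.8 ± 17.5 in XEN, compared with 53.6 ± 6.84 in ES. Sdhc and Sdhd anchor the enzyme in the membrane. Sdhc had 124 ± 25.1, 104 ± 3.30 and 119.6 ± 29.7 CPM in the same order. Sdhd had 153 ± 21.4, 125 ± 12.0 and 107 ± 19.0 CPM, and its log2 fold change of 0.52 ± 0.23 in pXEN against ES was the nearest to a call (edgeR adjusted p = 0.0971). For Sdhd all pXEN lines were above both ES lines, while for Sdha, Sdhb and Sdhc they overlapped.

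Complex III, the cytochrome bc1 complex, also had 0 calls by edgeR and by DESeq2, with 1 gene at an unadjusted p under 0.05 in pXEN against ES by either tool and, in XEN against ES, 1 by edgeR and 2 by DESeq2. The 95% interval of 8 of its 9 genes lay within 2-fold in both comparisons with ES. Cyc1, the cytochrome c1 that hands electrons to cytochrome c, had 165, 185 and 158 CPM in pXEN and 149, 181 and 142 in XEN, compared with 165 and 176 in ES. Its fold change in pXEN against ES lay between 0.72 and 1.37 (95% interval). Uqcrc2, a core subunit, had 200.3 ± 9.05 CPM in pXEN and 179 ± 1.71 in XEN, compared with 184 ± 8.39 in ES. Uqcrc1, its core partner, had 255, 227 and 188 CPM in pXEN and 235, 174 and 229.6 in XEN, compared with 314 and 272 in ES. Both ES lines were the highest, but the log2 fold changes of -0.39 ± 0.23 and -0.46 ± 0.23 missed the threshold (edgeR adjusted p = 0.2002 and 0.128). Uqcrfs1, the Rieske iron-sulfur protein, had 82.8 ± 15.1, 80.5 ± 12.5 and 74.4 ± 2.27 CPM. The smallest p belonged to Uqcr11 in pXEN against ES (0.56 ± 0.23, adjusted p = 0.0769) and to Uqcr10 in XEN against ES (-0.56 ± 0.24, adjusted p = 0.0836), both small subunits.

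In complex IV, cytochrome c oxidase, 5 of the 14 tested genes (35.7%) were called in pXEN against ES, 3 higher and 2 lower, a share near the 35.9% of all tested genes. In XEN against ES 1 rose and 1 fell (14.3%, against 38.4% of all tested genes). Cox5b, a zinc-binding subunit on the matrix side, had 126, 129 and 189 CPM in the pXEN lines, 149.6, 128 and 109 in the XEN lines and 86.4 and 71.3 in the ES lines. All endoderm lines were above both ES lines. The log2 fold change was 0.91 ± 0.26 in pXEN (edgeR adjusted p = 0.0189) and 0.71 ± 0.26 in XEN (adjusted p = 0.0514), and XEN passed with DESeq2, with no filter on low counts, with unstranded counts and with Rn45s left out. Ndufa4 had 239.9, 157 and 215 CPM in pXEN and 129, 197 and 207 in XEN, compared with 130.4 and 93.5 in ES. The pXEN lines were above both ES lines, while XEN1 lay between them. The change was 0.86 ± 0.29 in pXEN (adjusted p = 0.0359) and 0.67 ± 0.29 in XEN (adjusted p = 0.0867). The pXEN call was lost with upper-quartile scaling, without pXEN2 and without pXEN6.

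Cox6a1, the broadly expressed form of a small membrane subunit, had 79.0, 85.4 and 74.9 CPM in pXEN and 96.6, 57.8 and 79.0 in XEN, compared with 47.7 and 44.0 in ES. Every endoderm line was above both ES lines. The log2 fold change was 0.80 ± 0.26 in pXEN (edgeR adjusted p = 0.0307) and 0.76 ± 0.26 in XEN (adjusted p = 0.0363), and upper-quartile scaling ended both calls, as did a fit of the 2 groups alone for XEN. Cox7c, another small membrane subunit, went the other way and had 126, 167 and 94.4 CPM in pXEN and 109.5, 141 and 140.3 in XEN, compared with 224 and 221 in ES. Both ES lines stood above all endoderm lines. The change was -0.78 ± 0.26 in pXEN (adjusted p = 0.0328) and -0.77 ± 0.26 in XEN (adjusted p = 0.0341). Of the 100-base windows of its transcripts, 16.2% also occur in transcripts of other genes, so its counts are less certain.

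Several complex IV subunits exist as broadly expressed and tissue-restricted forms, and in these lines the broadly expressed form dominated each family. Cox6b2, known as the testis form, had 3.29, 3.42 and 2.87 CPM in pXEN and 2.73, 6.95 and 6.87 in XEN, compared with 18.9 and 8.18 in ES. It fell in pXEN against ES by 2.07 ± 0.52 on the log2 scale (edgeR adjusted p = 0.00946), and in XEN the change was -1.26 ± 0.50 (adjusted p = 0.0673). These levels rest on 32, 58 and 67 counts summed over pXEN, XEN and ES. Without ES2, the higher ES line, the pXEN change was -1.34 and no longer called (adjusted p = 0.17), and without ES3 it was -2.54. Its partner Cox6b1 had 124, 138 and 116 CPM in pXEN and 124, 91.5 and 111 in XEN, compared with 90.1 and 76.4 in ES, a change of 0.60 ± 0.23 in pXEN (adjusted p = 0.0599). Per kilobase, Cox6b1 stood at 193 CPM against 4.25 for Cox6b2 in pXEN and at 127 against 18.0 in ES.

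The other families were more one-sided. Cox4i1, the regulatory subunit at the core of assembly, had 55.5 ± 6.81 CPM in pXEN and 56.5 ± 15.1 in XEN, compared with 54.6 ± 0.656 in ES. Cox4i2, known as the lung and hypoxia form, had 0, 1 and 5 counts summed over the same groups and was not tested. Cox6a2, the heart and muscle form, had 1 count in all. Cox7a2 had 156 ± 13.0, 126 ± 1.73 and 126 ± 27.1 CPM, while Cox7a1, the muscle form, had 2.06 ± 1.68, 3.00 ± 0.793 and 4.77 ± 1.52 CPM. Cox8b was listed at 0 in all mouse lines and Cox8c, another testis form, had 1 count. Ndufa4l2, known as a hypoxia-induced relative of Ndufa4, was listed at 0 in all lines of both species. Cox7b2, a relative of Cox7b known from testis, had 13 counts in pXEN2, 20 in pXEN6 and 0 in pXEN4, with 1 count in all XEN lines and 2 in all ES lines. In pXEN against XEN its log2 fold change was 4.59 ± 1.49 (edgeR adjusted p = 0.139). It had enough counts to be tested only through pXEN2 and pXEN6, so no conclusion is drawn from its test.

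Complex V, the ATP synthase, had 15 tested genes, of which 1 rose in each comparison with ES. This was Atp5d, the delta subunit of the central stalk, which had 170.1, 186 and 168 CPM in pXEN and 207, 148 and 162 in XEN, compared with 99.5 and 104 in ES. All endoderm lines were above both ES lines. The log2 fold change was 0.78 ± 0.22 in pXEN (edgeR adjusted p = 0.0185) and 0.76 ± 0.22 in XEN (adjusted p = 0.0208). The pXEN call held in 11 of 13 alternatives and was lost only when either ES line was left out, where adjusted p reached 0.108. Atp5b and Atp5a1, of the catalytic head, were not called. Atp5b had 1051, 1149 and 964 CPM in pXEN and 902, 848 and 906 in XEN, compared with 1201 and 947 in ES, and its fold change in pXEN against ES lay between 0.74 and 1.31 (95% interval). Atp5a1, the alpha subunit, had 206 ± 3.92 CPM in pXEN and 207 ± 56.3 in XEN, compared with 174 ± 27.0 in ES. The genes Atp5g1, Atp5g2 and Atp5g3 encode the same mature c subunit of the rotor. Atp5g3 was the highest of them at 123 CPM per kilobase in pXEN and 95.9 in XEN, compared with 101 in ES, followed by Atp5g2 at 49.4, 49.9 and 40.5 and Atp5g1 at 8.08, 7.27 and 9.75. None of the 3 passed the test in any comparison, and 34.7% of the Atp5g2 windows are shared with other transcripts.

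Among the assembly and accessory genes, 1 of 9 tested fell in each comparison with ES. Atp5sl, known also as Dmac2 and needed for the distal membrane arm of complex I, had 17.1, 18.2 and 23.0 CPM in pXEN and 12.1, 16.1 and 14.5 in XEN, compared with 42.4 and 28.5 in ES. Both ES lines were above all endoderm lines. The log2 fold change was -0.86 ± 0.29 in pXEN (edgeR adjusted p = 0.0392) and -1.30 ± 0.30 in XEN (adjusted p = 0.00553). The XEN call was lost only without ES2 (adjusted p = 0.0804), while the pXEN call was lost in 6 of 13 alternatives. The group median was -0.32 in pXEN and -0.25 in XEN, below 0, in contrast to complex I at 0.28 and 0.18; the difference between these medians was not tested. Atp5s, the coupling factor B gene, had 19, 15 and 14 counts in pXEN, XEN and ES and was not tested.

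**Figure D3:**
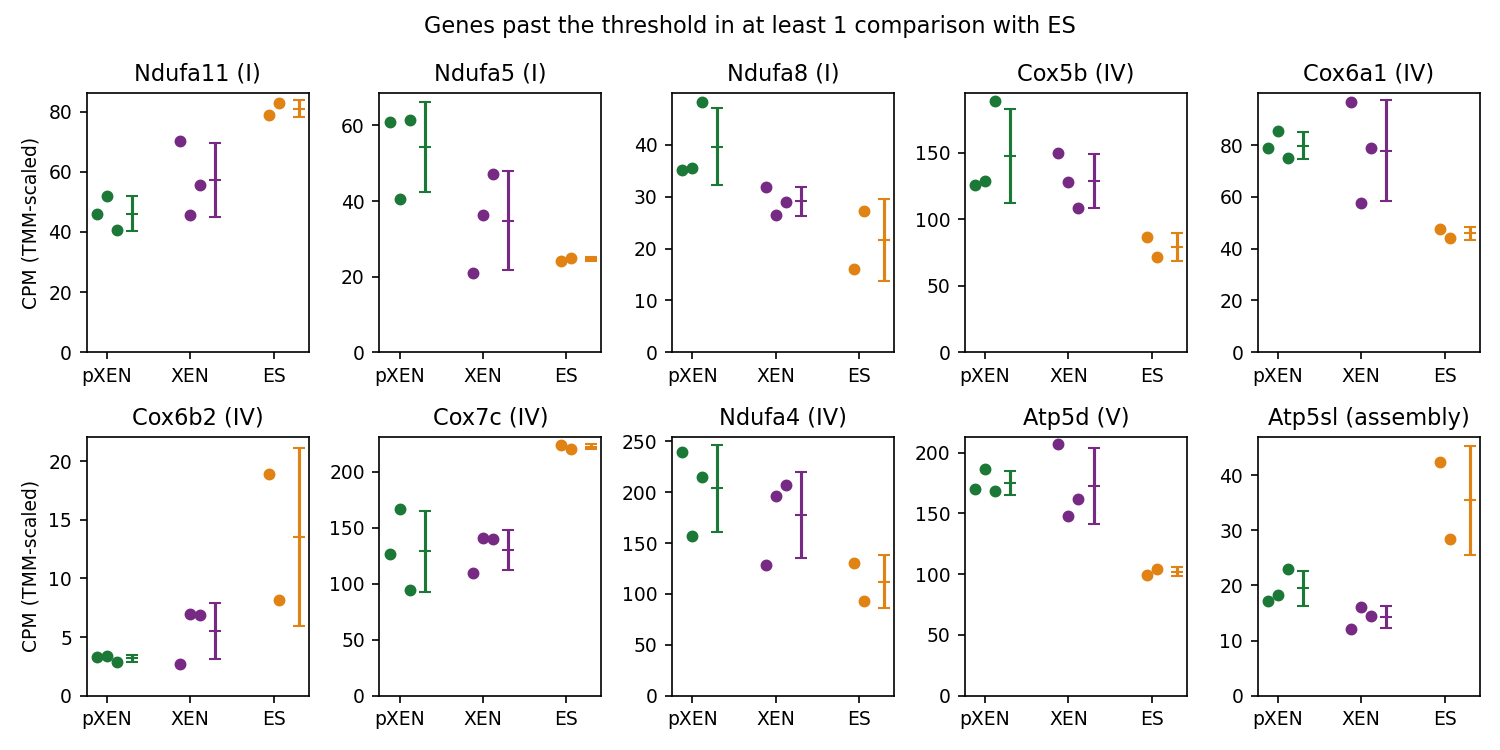
CPM (TMM-scaled) by line of the 10 genes called in at least 1 comparison with ES, with the complex in brackets and the mean ± SD beside the points. In each panel the pXEN points lie wholly above or wholly below the ES points, for example 168 to 186 CPM against 99.5 and 104 CPM for Atp5d.

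The design also sets pXEN lines against XEN lines, 2 kinds of endoderm line kept in different cultures. None of the 86 genes was called, against 4.55% of all tested genes (0.918% higher and 3.63% lower), 3.15% of genes of similar level and 2.81% of genes with under 1500 bases of exon. At an unadjusted p under 0.05 there were 3 by edgeR (Ndufa10, Ndufaf1 and Cox7b2, all higher in pXEN) and 4 by DESeq2, which also called 0 after adjustment. Of these, Cox7b2 had enough counts to be tested only through pXEN2 and pXEN6. The differences were small and mostly of one sign: 65 of 86 log2 fold changes (75.6%) were above 0, against 49.2% of all tested genes. The share was 57.5% of genes with under 1500 bases of exon and 74.5% of 51 mitochondrial ribosomal protein genes, so it was not particular to these genes. The median was 0.09, against 0.00 for all tested genes, 0.05 for the short genes and 0.16 for the mitochondrial ribosomal genes. All pXEN lines were above all XEN lines for 17 genes (19.8%) and below them for 0. All tested genes gave 8.32% above and 11.5% below, or 19.8% in either direction, the same total share as these genes. Among the 17 were Atp5b, Atp5c1, Atp5f1, Atp5g3 and Atp5k of complex V and Ndufs1, Ndufa8, Ndufa10 and Ndufab1 of complex I. Ndufa10, an accessory subunit of complex I, had 112, 102 and 143 CPM in pXEN against 85.0, 88.7 and 89.6 in XEN, a log2 fold change of 0.44 ± 0.20 (edgeR adjusted p = 0.323). Ndufaf1, an assembly factor of complex I, had 8.23, 13.7 and 10.0 CPM against 4.68, 7.78 and 4.23 (0.93 ± 0.40, adjusted p = 0.290). The 95% interval lay within 2-fold for 71 of the 86, against 45.8% of all tested genes and 59.2% of genes of similar level. All 4 genes of complex II, all 9 of complex III and all 15 of complex V were inside it. Fibroblast markers, 537 to 616 CPM in XEN and 19.7 to 24.2 CPM in pXEN, move with this comparison, and their part in it was not tested.

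Part of the spread between lines of 1 group followed the chromosome on which a gene lies. This was examined after the values were seen, over 8859 genes at 1 CPM or more in every mouse line, 83 of them oxidative phosphorylation genes. Each line's log2 CPM was compared with the mean of the other lines of its group. On chromosome 19 the median over 310 genes was 0.73 in pXEN4, and 286 of the 310 (92.3%) were above 0. It was -0.30 in pXEN2 and -0.42 in pXEN6. The 4 oxidative phosphorylation genes there were each highest in pXEN4 among the pXEN lines. Cox8a had 566 CPM in pXEN4 against 278 and 230.5 in pXEN2 and pXEN6. Ndufv1 had 145 against 78.6 and 67.7, Ndufs8 78.9 against 36.2 and 47.1, and Ndufb8 173 against 112 and 119. On chromosome 6 the median over 400 genes was -0.53 in pXEN4 and -0.51 in XEN1. The 4 genes there, Ndufa4, Ndufa5, Ndufa9 and Ndufb2, were each lowest in pXEN4 among pXEN lines and lowest in XEN1 among XEN lines. Ndufa9 had 49.8 CPM in pXEN4 against 70.1 and 68.3, and 42.9 CPM in XEN1 against 62.3 and 76.4. Over the 75 other genes the median deviation of pXEN4 was 0.12 and that of XEN1 0.05. Over the same genes ES2 stood above ES3 by a median of 0.21, a difference about as large as the median log2 fold change of 0.22 in pXEN against ES.

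These line values touch calls above. Ndufa4 and Ndufa5 are on chromosome 6 and were lowest in pXEN4, so leaving out pXEN4 raised their change in pXEN against ES. Without it both stayed called, at log2 fold changes of 1.02 and 1.31. Both calls were lost without pXEN2 (0.73 and 1.05, edgeR adjusted p = 0.111 and 0.0702). They were also lost without pXEN6 (0.82 and 1.04, adjusted p = 0.0785 and 0.0656). The changes were 1.13 and 1.13 without ES2, and 0.65 and 1.17 without ES3. Cox5b is on chromosome 1, where the median of pXEN6 was 0.44, and it was highest in pXEN6. Without pXEN6 its log2 fold change in pXEN against ES was 0.69 and no longer called (edgeR adjusted p = 0.0658), and it was also lost without either ES line. Cox8a, on chromosome 19, had a log2 fold change of 0.90 ± 0.37 in both comparisons with ES (edgeR adjusted p = 0.0814 and 0.0775), and the pXEN value was 0.41 without pXEN4 and 1.14 without pXEN6, where it passed (adjusted p = 0.0308). On the X chromosome ES3, labelled female, stood above ES2, labelled male, by a median of 0.73. The XEN lines did not follow the labels, with -0.093 in XEN1 (female) against 0.10 in XEN2 and 0.0099 in XEN5 (both male). In pXEN the medians were -0.11 in pXEN4 and 0.25 in pXEN6 (both female) against -0.13 in pXEN2 (male). Cox7b, Ndufa1 and Ndufb11 are X-linked, and each was higher in ES3. Cox7b had 411 CPM in ES3 and 211 in ES2, Ndufa1 35.5 and 21.4, and Ndufb11 99.8 and 66.6. None of the 3 was called in any comparison. Gene dosage was not measured, and its part in these values was not tested.

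**Figure D4:**
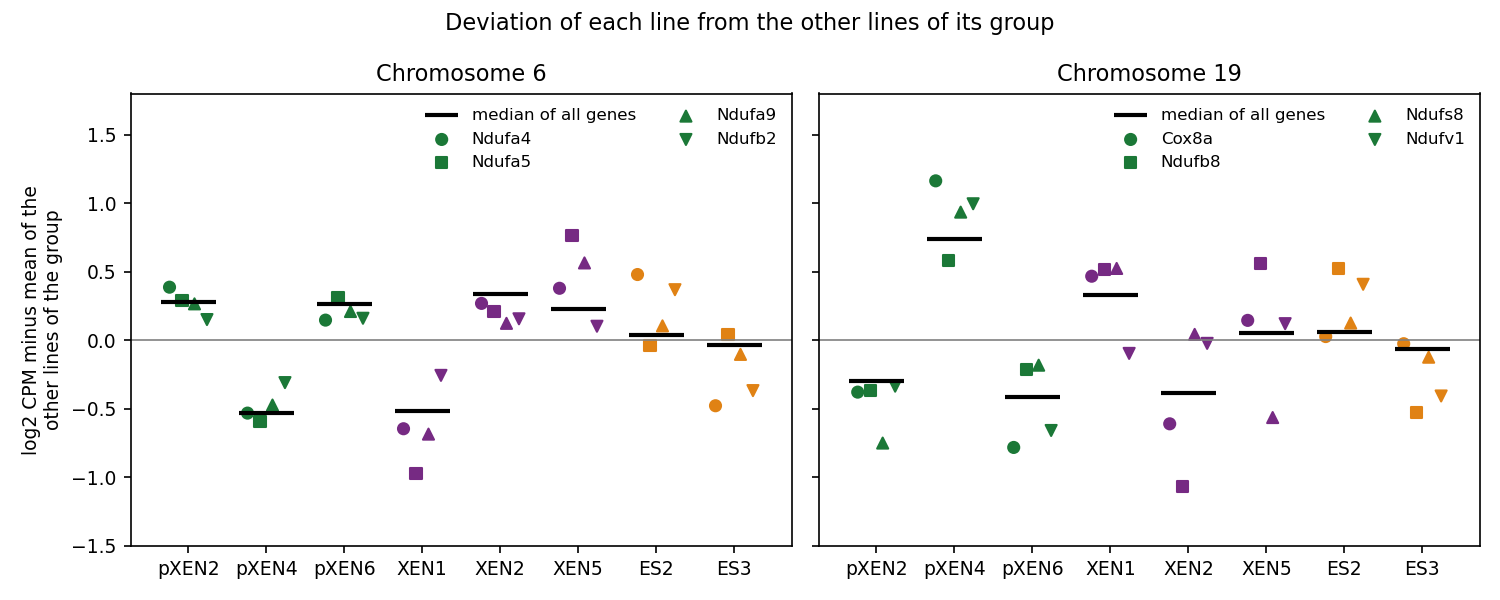
Deviation of each mouse line from the mean of the other lines of its group (log2 CPM) for the 4 genes on chromosome 6 and the 4 on chromosome 19, with a black bar at the median of all genes of that chromosome (400 and 310 genes). Points follow the bars in pXEN4, at -0.53 on chromosome 6 and 0.73 on chromosome 19, and in XEN1 on chromosome 6 at -0.51.

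Rat XENP lines were set beside mouse pXEN lines without a test, since species, genome build, annotation and line change together. The 87 rat genes summed to 1.19% ± 0.0769 (SD, n = 4) of counts without Rn45s, between 1.15% and 1.31% by line. The 93 mouse genes summed to 1.36% in pXEN. These sums cover different sets of rows, and none was taken over the 85 shared genes, so the species are not compared by them. Complex V again held the largest share, at 0.428%. Genes were ranked among 14386 symbols shared by both species, and over the 85 shared genes the ranks of pXEN and XENP means gave Spearman's rho of 0.784, as a description across genes that share libraries. Atp5b was the highest of them in CPM in both species, with 1633 ± 187 CPM in XENP. Rat and mouse CPM are not on the same scale, since Rn45s takes up a large part of the mouse counts and almost none of the rat counts.

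A few genes departed from this order. Ndufa1, a small membrane subunit of complex I, stood at percentile 79.5 in pXEN and was listed at 0 in all 4 rat lines, where a count of 0 allows 2.41 to 2.86 CPM. Atp5f1, the b subunit of the ATP synthase stalk, was at percentile 98.4 in pXEN and 41.2 in XENP, with 352 ± 47.0 CPM in pXEN and 5.63, 1.85, 3.82 and 0.893 CPM in CX1, MAX2, MAX3 and MAX8. Ndufs6 was at percentile 83.5 and 49.1, and Ndufb6 at 80.3 and 54.4. In the other direction Ndufs5 was at percentile 16.9 in pXEN, where it was listed at 0, and 63.9 in XENP, and Ndufa2 at 45.8 and 76.1. Of rat reads 65.5% to 70.1% mapped to several places, against 7.84% to 9.65% of mouse reads, and such reads are not counted to genes. How far this lowers single rat rows was not tested. The rat row Atp5i, the rat symbol of the subunit called Atp5k in mouse, had 96.4 to 113 CPM, and Ndufa10l1 had 4 counts in all. The mouse symbols Ndufaf2, Ndufc1, Ndufa3, Ndufa13, Cox7a1, Cox6b1, Cox7b2 and Atp5k had no match among the rat symbols.

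**Figure D5:**
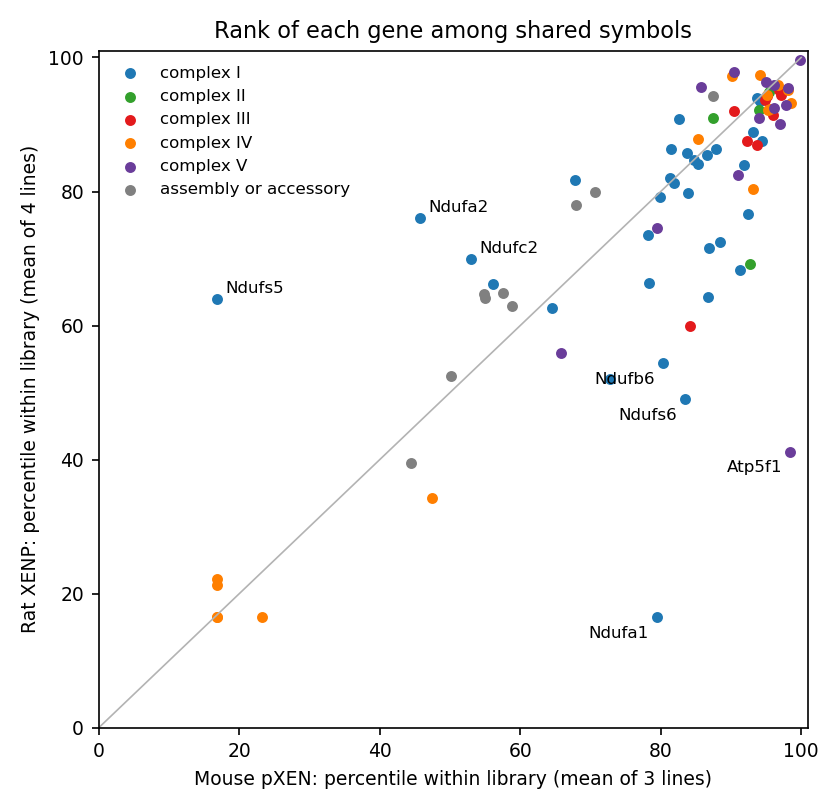
Percentile of each shared gene within the library in mouse pXEN (mean of 3 lines) and rat XENP (mean of 4 lines), coloured by complex, with a line of equal rank. Most genes lie near the line, while Ndufa1 (79.5 against 16.6) and Atp5f1 (98.4 against 41.2) fall far below it and Ndufs5 (16.9 against 63.9) above it.

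Genes around the respiratory chain were read from lists of other mitochondrial functions. Among 14 tested regulators of mitochondrial gene expression, 2 rose and 2 fell in pXEN against ES, and 3 rose and 3 fell in XEN against ES. These shares of 28.6% and 42.9% are near those of all tested genes, 35.9% and 38.4%, which are also the background of the lists that follow. Gabpa, a subunit of the factor GABP, had 43.8, 56.4 and 48.2 CPM in pXEN and 38.6, 67.8 and 41.2 in XEN, compared with 114 and 95.5 in ES, 2.11-fold and 2.12-fold lower (edgeR adjusted p = 0.0101 and 0.00986). Tfb1m, a methyltransferase of mitochondrial ribosomal RNA, was 2.61-fold lower in pXEN (adjusted p = 0.0494). Esrra, the estrogen-related receptor alpha, was 2.85-fold higher in XEN (adjusted p = 0.0138), with 46.8, 21.4 and 39.9 CPM against 9.87 and 15.2 in ES, and stood at 26.3, 31.9 and 17.8 CPM in pXEN (adjusted p = 0.0757). Lrpprc, which stabilises mitochondrial messenger RNA, was 2.33-fold lower in XEN (adjusted p = 0.0455). Nrf1 had 15.8 ± 4.02 CPM in pXEN and 15.5 ± 3.47 in XEN, compared with 22.8 ± 3.10 in ES and was not called.

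The adenine nucleotide carriers, which exchange ADP for ATP across the inner membrane, moved in opposite directions. Slc25a4 had 486, 589 and 515 CPM in pXEN and 517.5, 438.5 and 696 in XEN, compared with 125 and 237 in ES, and was 2.93-fold higher in pXEN and 3.04-fold higher in XEN (edgeR adjusted p = 0.00234 and 0.00203). Slc25a5 had 405, 351 and 502 CPM in pXEN and 319.5, 325.6 and 392 in XEN, compared with 560.1 and 1055 in ES, and was 1.93-fold and 2.33-fold lower (adjusted p = 0.0182 and 0.00487). In both genes the ES lines did not overlap the others, and ES3, labelled female, was above ES2, labelled male. Gene dosage was not measured, and its part in these values was not tested. They were the only calls among the 7 carriers and uncoupling proteins tested.

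Of 16 tested genes of the citrate cycle and pyruvate dehydrogenase, 2 rose and 3 fell in pXEN against ES and 3 rose and 3 fell in XEN. Suclg2, of the GTP-forming succinyl-CoA synthetase, was 2.33-fold and 2.34-fold higher. Idh3g, of the NAD-linked isocitrate dehydrogenase, was 2.29-fold and 2.23-fold lower. Of 51 mitochondrial ribosomal protein genes, 1 rose and 1 fell in pXEN and 1 rose and 7 fell in XEN, with Mrpl45 3.45-fold and 3.41-fold lower and Mrpl53 2.72-fold and 2.14-fold higher. Of 36 assembly factors outside the symbol rule, 2 rose and 0 fell in pXEN and 2 rose and 2 fell in XEN, with Sdhaf2, which helps attach flavin to Sdha, 1.95-fold and 1.87-fold higher. In pXEN, Coa5 was also 1.66-fold higher, and in XEN, Cox15 was 2.20-fold higher and Pet100 1.92-fold lower. Of 4 tested subunits or carriers of electrons outside the rule, Cycs, the somatic cytochrome c, was 1.86-fold higher in pXEN (edgeR adjusted p = 0.0450), and 2010107E04Rik, a small subunit of the ATP synthase, was 1.95-fold higher (adjusted p = 0.00672). Cycs is on chromosome 6 and had 95.1 CPM in pXEN4 against 169 and 184 in the other pXEN lines. Of 17 tested glycolytic genes 0 rose and 5 fell in pXEN, and 2 rose and 2 fell in XEN, with Pfkp, the platelet-type phosphofructokinase, 27.1-fold and 12.9-fold lower. The lactate and pyruvate transporter Slc16a3 also fell in pXEN and the kinase Pdk1 in XEN, by 4.06 and 2.54 on the log2 scale. In pXEN against XEN none of these 7 lists had a call by edgeR (9 of 145 genes at an unadjusted p under 0.05), and DESeq2 called 1 (11 unadjusted). The glycolytic genes still had a median log2 fold change of -0.65 there, with 1 of 17 above 0. Medians of the other lists lay between 0.04 and 0.26, and that of all tested genes was 0.00. All pXEN lines were below all XEN lines for 4 of the 17 (23.5%) and above for 0. All tested genes gave 11.5% and 8.32% (19.8% in either direction).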

How the data were processed

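Each of 8 mouse and 4 rat cell lines gave 1 RNA-seq library. The labels' protocols describe rRNA removal, a strand-marking kit and paired-end sequencing. The authors deposited whole-number read counts for every gene, with columns for unstranded, same-strand and reverse-strand counting. The submitters' processing notes list CASAVA 1.8.2, Trimmomatic 0.33, STAR 2.5.1, DESeq2 without a version, mm10 and rn6, without their roles. The annotation behind the counts was not given in the sources used here. Reverse-strand counts were analysed because they held 98.9% to 99.3% of stranded counts in mouse and 99.1% to 99.2% in rat. Reads assigned to no gene (73.4% to 78.3% in mouse, 89.7% to 91.8% in rat) stayed out of library sizes. Tables of the pXEN lines are named mouse XENP, and groups follow titles and cell types.

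All 8 mouse libraries were fitted together with edgeR 4.0.16 in R 4.3.3 (TMM scaling, filterByExpr with a minimum count of 10, robust quasi-likelihood fit), and p-values were adjusted over 10895 genes. DESeq2 1.42.0 was an alternative. The script was tested on simulated data. Replicates are separate lines, and pairs of lines in a group differed beyond sampling noise. Rat values are plain CPM. Exon lengths, positions and shared 100-base windows come from GENCODE vM21 (92 of 93 genes matched), promoters from RefSeq GRCm38.p6. Genes of similar level are those between the 10th and 90th percentile of the member levels, 8.44 to 179.6 CPM.

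The genes and lists were chosen with earlier results of these data known. Named genes are the called ones with the 3 highest and 3 lowest changes per complex, else the smallest p, isoform pairs, core subunits, untested genes and, per list, the 2 called genes with the largest change. Uqcrc2, Cox7b, Uqcrh, Nrf1, genes without overlap of pXEN and XEN, and genes named by chromosome or percentile were chosen after their values were seen. Alternatives were other scalings, DESeq2, no filter, unstranded counts, Rn45s left out, a sex term, fits of 2 groups and leaving out each line.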

Additional observations from a re-analysis of the deposited data

Results flagged for a closer look

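Among 83 rat values with enough counts, 3 stood far from the other lines of their group. Chance alone does so in about 1 in 20 groups of 4. Sdha had 82.1 CPM in CX1 (102 counts) and 25.9 to 34.4 CPM in the other 3 lines. Ndufaf4, an assembly factor of complex I, had 142 CPM in CX1 (176 counts) and 58.9 to 60.1 CPM in the others. CX1, at passage 38 to 40 against 10 to 17 in the others, also stood apart in its markers. Its pluripotency markers summed to 175 CPM against 21.0 to 28.7. Only 5 of the 8 pluripotency markers had a rat row, and 3 of these 5 were at 0 in each rat line, so the sums rest on few genes. Its extraembryonic endoderm markers summed to 20351 CPM against 35320 to 39780. The part of these differences in the values of Sdha and Ndufaf4 was not tested. The summed complex IV genes had 2214 CPM in MAX2 and 2453 to 2493 CPM in the others.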

How the results depend on the processing

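With upper-quartile scaling, 3 of the oxidative phosphorylation genes were higher in pXEN against ES with a median log2 fold change of 0.11, and in XEN against ES 1 was higher and 7 lower with a median of -0.093. That scaling moves the median of all genes from -0.03 to -0.13 in pXEN against ES and from 0.00 to -0.11 in XEN against ES, and the distance between these genes and all genes is then 0.24 and 0.02, against 0.25 and 0.02. With no filter on low counts, 4 were higher in XEN against ES, the cause of which was not tested. Leaving out each line in turn, all genes called higher ranged from 1168 to 1818 in pXEN against ES, from 1277 to 2158 in XEN against ES and from 63 to 86 in pXEN against XEN. Those called lower ranged from 1358 to 1761, from 1197 to 1834 and from 255 to 362. Oxidative phosphorylation genes called higher ranged from 0 to 6, 0 to 4 and 0 to 1, and those called lower from 0 to 3, 0 to 2 and 0 to 0. Their medians ranged from 0.13 to 0.26, from -0.031 to 0.11 and from 0.091 to 0.15. No paired analysis was possible because the groups compared share fewer than 2 line numbers. Fewer lines in a group weaken the test by construction. At this depth 7 of the 93 genes had too few counts to be tested.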

Other observations

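In the rat lines, Ndufaf7, a methyltransferase that acts on complex I, had 31 and 23 counts in MAX2 and MAX3, both of strain F344, and 5 and 3 counts in CX1 and MAX8, both of strain WKY. As CPM these are 28.7 and 21.96 against 4.02 and 2.68. With 2 lines of each strain no test was run, and the gene was picked after its values were seen.

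Chromosome-wide deviations of single mouse lines, measured as above, were also seen away from chromosomes 6 and 19. XEN2 had a median of 0.58 on chromosome 16 and 0.49 on chromosome 15, XEN5 of 0.42 on chromosome 8, XEN1 of 0.48 on chromosome 18, and pXEN6 of 0.44 on chromosome 1. On chromosome 12 pXEN4 stood at -0.45 and pXEN2 at 0.37. Over all lines and chromosomes the median size was 0.0847.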
